A study of Mus musculus with 12 samples.

Results

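The transcripts described here are those of 36 genes: MYC and its dimer partners, and 31 genes whose products work in or around the nucleolus to make ribosomes. They were taken by symbol from a list that was drawn up with earlier results of these data known, and all 36 were found among the 55450 genes of the files and passed the filter on low counts, which 13636 genes passed. The cells were CD8 T cells of pmel-1 mice, which carry a transgenic T cell receptor for a peptide of the melanoma antigen gp100, so 1 receptor specificity stands for all of them. All cells were wild type for Ucp2, had been stimulated in culture by the peptide or by antibodies to CD3 and CD28 (the labels do not say which), and had been expanded for 4 days with IL-2 at 10 ng/ml. The 4 groups of 3 libraries received vehicle (culture medium), genipin, genipin together with N-acetylcysteine (NAC), or NAC alone, at doses that the labels do not state. Genipin is a plant-derived crosslinking compound that is used as an inhibitor of the mitochondrial carrier Ucp2, and NAC is a thiol antioxidant and a source of cysteine. The labels do not say whether the replicates were separate animals or cultures, so the p-values reflect no more than how far these libraries spread, and that spread may be technical.

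MYC is a transcription factor that binds DNA as a dimer with MAX, preferably at the E-box CACGTG, and MAX also pairs with the MXD proteins, which occupy the same sites and recruit repressors. Activated T cells raise MYC when they enter growth, and genes for ribosome production are among the best known MYC targets. Ribosomes are assembled in the nucleolus: RNA polymerase I transcribes the ribosomal RNA precursor, small nucleolar ribonucleoproteins modify it, and separate sets of factors process it into the small and the large subunit.

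The CACGTG motif was looked for in the RefSeq promoter windows (GRCm38.p6, 250 bases before to 50 bases after each start, 300 bases in all). The table held 29 of the 36 genes, and 7 of these (24.1%) had the motif: Max, Mxd4, Mybbp1a, Nop2, Pes1, Utp20 and Wdr43. It was present in 8.09% of all 27025 genes of the table, and in 11.6% of the 9848 that were also tested for expression. The exact 95% binomial interval of the 24.1% ran from 10.3% to 43.5%, which includes the 11.6%. CACGTG reads the same on both strands, so a single search covers both. The windows for Bop1, Fbl, Myc, Npm1, Rrp12, Rrs1 and Tcof1 were not analysed here. The motif lay before the start or close behind it in 5 of the 7, whose sequences around it, on the strand of the gene and with CACGTG in capitals, were as follows.
Mxd4: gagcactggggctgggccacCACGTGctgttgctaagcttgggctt
Max: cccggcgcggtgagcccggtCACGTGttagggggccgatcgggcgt
Nop2: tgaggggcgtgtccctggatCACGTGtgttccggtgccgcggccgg
Pes1: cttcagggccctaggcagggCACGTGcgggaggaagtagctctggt
Wdr43: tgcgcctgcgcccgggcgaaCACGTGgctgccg
The Mxd4 stretch is chr5:34187904-34187949 on the minus strand, with the first base of the motif 219 bases before the start. That of Max is chr12:76962226-76962271 on the minus strand, 3 bases before the start, and that of Nop2 is chr6:125131803-125131848 on the plus strand, 60 bases before it. In Pes1 (chr11:3963957-3964002, plus strand) and Wdr43 (chr17:71616212-71616244, plus strand) the motif begins 2 and 17 bases after the start. The wider pattern CANNTG, which includes CACGTG, was present in 58.6% of the 29 genes, in 75.0% of all genes of the table and in 67.4% of those tested for expression. A match of letters describes the window and does not show binding in these cells.

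The libraries held 20838894 to 31098648 expected counts (estimated reads per gene, summed). Replicate 1 of the group with both compounds stood apart from the other two of its group: its chi-square per degree of freedom over genes was 7.23 and 8.29 against them, while the remaining pairs within groups gave 2.09 to 3.00. Markers of CD8 T cells were abundant in every library, with summed levels of 3070 to 3890 TPM (a level scaled for transcript length and library size). Markers of other cells were low and differed between groups. The 3 markers of CD4 T cells summed to 36.5 to 42.8 TPM with NAC and 15.3 to 26.2 elsewhere, nearly all of it Zbtb7b, and Cd4 itself had a mean of 2.23 TPM with NAC and 1.08 or less elsewhere. The 5 B cell markers summed to 10.4 to 12.7 TPM with NAC and 1.09 to 7.08 elsewhere. The 5 myeloid markers summed to 11.5 to 12.9 TPM with both compounds and 3.06 to 4.48 elsewhere, most of it Itgam where both compounds were present. The 3 NK cell markers summed to 47.5 to 48.0 TPM with genipin and 18.3 to 34.9 elsewhere, and Eomes, which CD8 T cells also express, made up most of it with genipin. Their part in the results was not tested. In bulk RNA, fewer cells of a type and less RNA per cell cannot be told apart.

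The nucleolar genes were lowest where both compounds were present. All 31 were lower with both compounds than with vehicle, with a median log2 fold change of -0.66, against 0.0048 over all genes tested. All adjusted p-values come from the quasi-likelihood test of edgeR, adjusted after Benjamini and Hochberg over all 13636 genes, with 0.05 as the threshold for a call. For comparison, 28.9% of all genes were called lower and 28.5% higher in that contrast. In 25 of the 31 genes (80.6%), all 3 libraries with both compounds lay below all 9 other libraries, which was true of 9.29% of all genes tested. The mean of the group with both compounds was the lowest of the 4 group means for 28 of the 31, against 21.1% of all genes; in Polr1c the NAC mean was lowest, and in Npm1 and Nop14 the genipin mean was. On the TPM scale (log2 of TPM + 1, limma), 28 of the 31 were called lower against vehicle and none higher, and Ncl, Npm1 and Nop14 were not called. Of all 13636 genes, 2605 were called lower and 3777 higher on that scale.

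**Figure D1:**
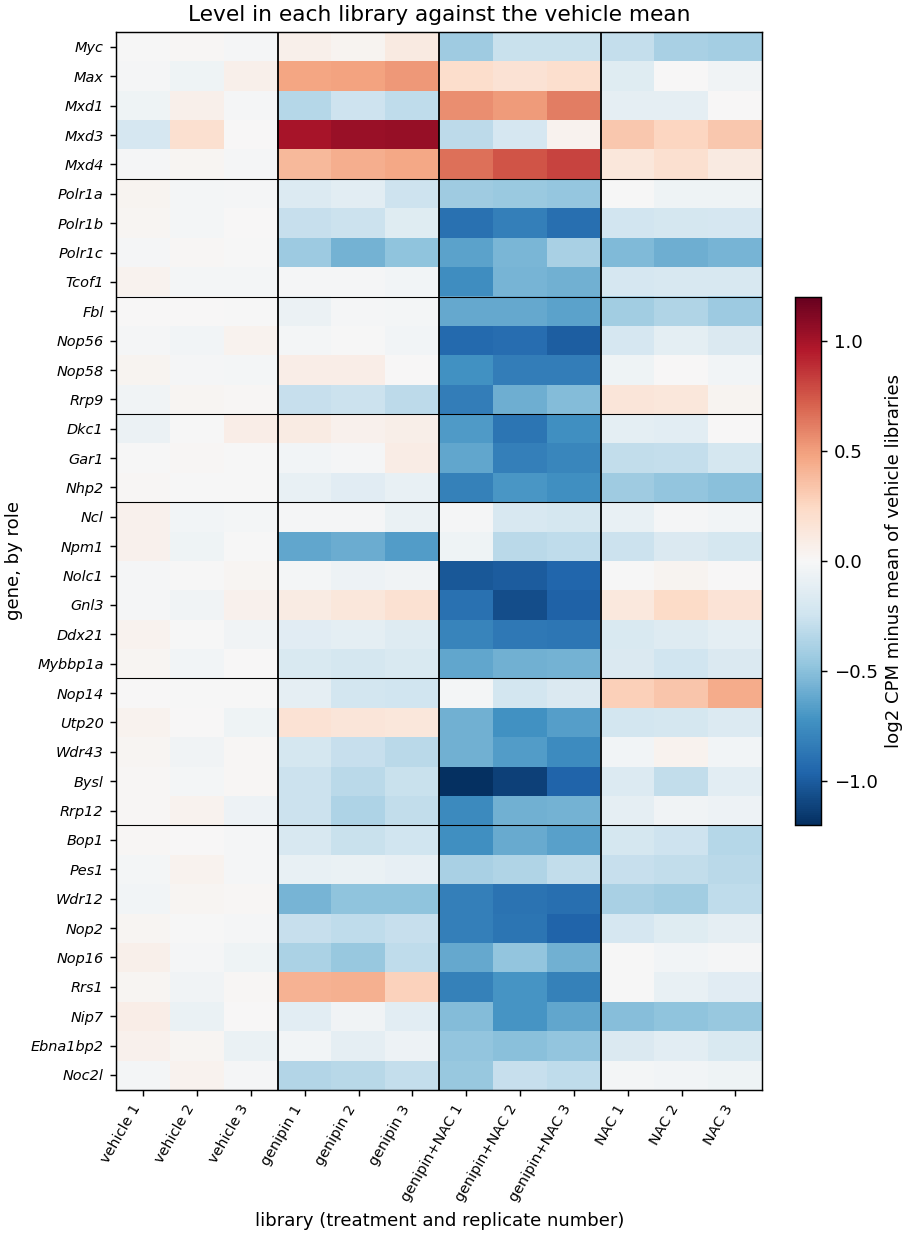
Level of each of the 36 genes (rows, grouped by role) in each of the 12 libraries (columns), as log2 CPM minus the mean of the 3 vehicle libraries; blue is lower and red is higher than vehicle. The 3 columns with both compounds are blue for nearly every nucleolar gene and red for Mxd1 and Mxd4.

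In CPM, Myc itself followed another order. Its normalised level (ENSMUSG00000022346.15, chromosome 15, 61985391 to 61990374; CPM, counts scaled to a common library size after TMM) was 406, 412 and 403 CPM in the vehicle libraries, 425, 415 and 439 with genipin alone, 303, 338 and 337 under both compounds, and 334, 310.2 and 306 under NAC alone. The vehicle and genipin libraries lay above all others, while the libraries with both compounds and with NAC overlapped. Against vehicle, genipin gave a log2 fold change ± SE of 0.068 ± 0.039 for Myc (adjusted p = 0.138), NAC -0.36 ± 0.039 (adjusted p = 8.31e-08) and both -0.32 ± 0.039 (adjusted p = 5.24e-07). Both compounds against NAC gave 0.043 ± 0.040 (adjusted p = 0.388), and both against genipin -0.39 ± 0.039 (adjusted p = 1.64e-08). Without replicate 1 of the group with both compounds, Myc was called higher with both than with NAC (0.093, adjusted p = 0.0137) and higher with genipin than with vehicle (0.070, adjusted p = 0.0282). On the TPM scale the rise of Myc with genipin was 0.22 (adjusted p = 0.00081 with limma), its fall with NAC -0.15 and its fall with both -0.23.

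Of the repressor partners, Mxd1 and Mxd4 were higher with both compounds. Mxd1 (ENSMUSG00000001156.9, chromosome 6, 86647042 to 86669161) was at 29.7, 32.2 and 30.5 CPM in the vehicle libraries, 24.2, 26.0 and 24.9 with genipin alone, 45.4, 44.0 and 47.0 under both compounds, and 28.6, 28.6 and 31.0 under NAC alone. The 3 libraries with both compounds were above all 9 others and those with genipin below them. Mxd1 changed by 0.56 ± 0.055 with both, -0.30 ± 0.058 with genipin and -0.069 ± 0.057 with NAC, the last not called; on the TPM scale the genipin value was -0.089 and not called. Mxd4 (ENSMUSG00000037235.13, chromosome 5, 34173883 to 34187720) was at 81.2, 83.4 and 81.2 CPM in the vehicle libraries, 107, 111 and 113 with genipin alone, 129.9, 138 and 144 under both compounds, and 89.8, 93.4 and 88.3 under NAC alone. All 4 groups were separate, with vehicle lowest, and the changes against vehicle were 0.14 ± 0.040 with NAC, 0.43 ± 0.040 with genipin and 0.75 ± 0.039 with both.

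Mxd3, a family member often found in dividing cells, was raised by genipin without NAC. Its level (ENSMUSG00000021485.14, chromosome 13, 55325168 to 55329823) was 13.2, 17.3 and 15.2 CPM in the vehicle libraries, 30.0, 31.1 and 31.2 with genipin alone, 12.2, 13.2 and 15.6 under both compounds, and 18.9, 18.1 and 19.0 under NAC alone. The genipin libraries were above all others, and those with both compounds overlapped with vehicle. The change was 1.01 ± 0.084 with genipin (adjusted p = 1.03e-09), 0.29 ± 0.088 with NAC and -0.15 ± 0.091 with both (adjusted p = 0.176). Without vehicle replicate 1, Mxd3 was not called with NAC (0.20, adjusted p = 0.0647) and was called lower with both (-0.24, adjusted p = 0.0371), and without replicate 3 of the group with both compounds it was also called lower with both (-0.26, adjusted p = 0.0214). The proliferation marker Mki67 had group means of 34.8 TPM with vehicle, 90.3 with genipin, 36.6 with both and 57.5 with NAC; its part in the Mxd3 values was not tested.

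For Max, the shared partner, the direction depended on the scale. In CPM, Max (ENSMUSG00000059436.13, chromosome 12, 76937269 to 76962201) was at 38.7, 37.9 and 41.0 CPM in the vehicle libraries, 54.5, 54.6 and 56.3 with genipin alone, 45.4, 44.1 and 45.0 under both compounds, and 35.3, 39.4 and 38.1 under NAC alone. In TPM it was at 28.3, 27.7 and 35.4 TPM in the vehicle libraries, 42.0, 40.8 and 42.8 with genipin alone, 46.2, 46.2 and 43.4 under both compounds, and 45.4, 45.6 and 69.1 under NAC alone. The highest group was genipin in CPM and NAC in TPM, and NAC replicate 3 stood above the other libraries in TPM only. The mean effective length of Max, which RSEM estimates from the isoforms it assigns reads to, was 1394 bases with vehicle, 1552 with genipin, 1111 with both and 899 with NAC, a spread of 1.73-fold and the widest among the 36 genes. The change of Max with NAC was -0.059 ± 0.050 in CPM (not called) and 0.60 with effective lengths as offsets, and with genipin it was 0.49 ± 0.048 and 0.33.

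**Figure D2:**
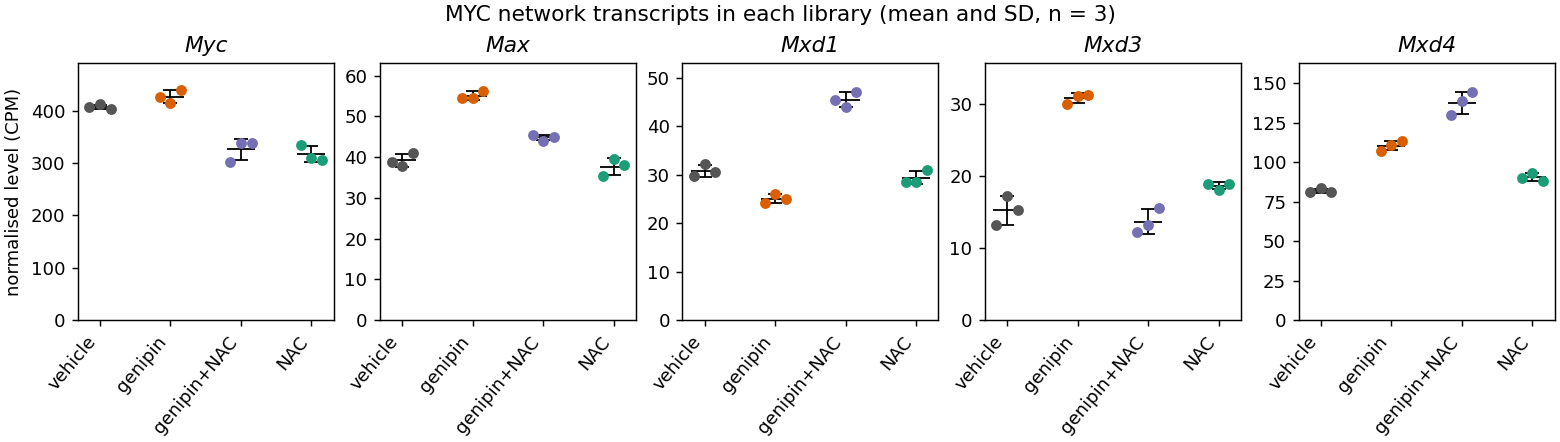
Normalised level (CPM, linear axis from 0) of Myc, Max, Mxd1, Mxd3 and Mxd4 in each library (points), with the group mean and SD (bars, n = 3). Myc separates vehicle and genipin from the other two groups, whereas Mxd1 and Mxd4 are highest with both compounds and Mxd3 with genipin.

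Among the RNA polymerase I genes, all 4 were called lower with both compounds against vehicle (median -0.57). Polr1b, the second largest subunit, was at 49.9, 48.4 and 49.5 CPM in the vehicle libraries, 40.7, 41.3 and 44.5 with genipin alone, 26.5, 28.0 and 26.3 under both compounds, and 42.0, 42.4 and 42.7 under NAC alone. Its libraries with both compounds were far below the other 9, and the change against vehicle was -0.87 ± 0.050 with both. With either compound alone it was -0.22 ± 0.048 (genipin) and -0.22 ± 0.048 (NAC) in CPM, both called lower, and 0.029 and 0.052 on the TPM scale. The largest subunit, Polr1a, changed by -0.45 ± 0.037 with both, and Tcof1 (treacle, a cofactor of the polymerase) by -0.62 ± 0.040.

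Polr1c, a subunit shared by RNA polymerases I and III (ENSMUSG00000067148.15, chromosome 17, 46243920 to 46248054), behaved unlike the other 3. Its level was 84.1, 85.3 and 84.5 CPM in the vehicle libraries, 62.4, 57.2 and 60.4 with genipin alone, 54.4, 58.0 and 64.7 under both compounds, and 58.7, 56.5 and 57.3 under NAC alone. Every treated library was below the vehicle libraries, and the 3 treated groups overlapped. Genipin gave -0.49 ± 0.049 against vehicle, NAC -0.56 ± 0.050 and both -0.52 ± 0.049.

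Of the proteins of the box C/D particles, which serve 2'-O-methylation of ribosomal RNA and early cleavage, all 4 fell with both compounds (median -0.71). Nop56, a core protein of the particle (ENSMUSG00000027405.16, chromosome 2, 130274430 to 130279313), was at 221, 219 and 231 CPM in the vehicle libraries, 220.3, 223 and 219 with genipin alone, 117, 119 and 112 under both compounds, and 194, 206 and 198 under NAC alone. The libraries with both compounds were the lowest without overlap, and the change was -0.95 ± 0.033. With genipin alone Nop56 changed by -0.020 ± 0.032 (adjusted p = 0.61), a value that was 0.12 with effective lengths as offsets. Nop58, the partner of Nop56, changed by -0.79 ± 0.036 with both and was not called with either compound alone in CPM; with genipin it was called higher on the TPM scale (0.23) and without normalization factors (0.12).

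Fbl, the methyltransferase of the particle, fell with NAC as well as with both. Its level was 201, 200.3 and 199 CPM in the vehicle libraries, 190.2, 198 and 197 with genipin alone, 131, 130.4 and 128 under both compounds, and 150, 156 and 148 under NAC alone. The NAC libraries were between those with both compounds and the rest, at -0.40 ± 0.029 against vehicle, while genipin gave -0.039 ± 0.029 (adjusted p = 0.254) and both gave -0.62 ± 0.030. Rrp9, which binds the U3 small nucleolar RNA, was at 49.8, 52.1 and 51.9 CPM in the vehicle libraries, 42.3, 42.9 and 41.1 with genipin alone, 28.9, 34.2 and 35.8 under both compounds, and 56.6, 56.4 and 52.4 under NAC alone. It changed by -0.29 ± 0.059 with genipin and -0.63 ± 0.060 with both, and NAC gave 0.10 ± 0.058 (adjusted p = 0.128). With genipin Rrp9 was not called with effective lengths as offsets (-0.14) or on the TPM scale (-0.011). With NAC it was called higher without normalization factors (0.22), on the TPM scale (0.29), when only the groups compared were fitted (0.10, adjusted p = 0.0396) and without replicate 1 of the group with both compounds (0.10, adjusted p = 0.0338).

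The 3 box H/ACA genes, whose products convert uridine to pseudouridine, fell by similar amounts with both compounds, between -0.76 and -0.74. Dkc1, the pseudouridine synthase, was at 83.9, 88.0 and 93.0 CPM in the vehicle libraries, 94.7, 91.2 and 92.4 with genipin alone, 55.1, 48.1 and 53.0 under both compounds, and 81.1, 80.6 and 88.3 under NAC alone. Only the libraries with both compounds were separate from vehicle, at -0.76 ± 0.050, and neither genipin (0.070 ± 0.048) nor NAC (-0.085 ± 0.048) was called in CPM. With genipin Dkc1 was called higher with effective lengths as offsets (0.17), without normalization factors (0.14) and on the TPM scale (0.30), and with NAC it was called lower without NAC replicate 3 (-0.13, adjusted p = 0.0416). Nhp2, a small RNA-binding protein of the particle, was at 104, 103 and 103 CPM in the vehicle libraries, 97.1, 94.1 and 97.4 with genipin alone, 58.9, 64.0 and 62.1 under both compounds, and 77.2, 74.5 and 73.0 under NAC alone. It was lower with NAC (-0.47 ± 0.036) and lowest with both (-0.75 ± 0.037); the small change with genipin (-0.11 ± 0.036) was 0.025 on the TPM scale, and was not called without genipin replicate 2 or vehicle replicate 1 (adjusted p of 0.068 and 0.0511). Gar1 changed by -0.26 ± 0.057 with NAC (-0.13 on the TPM scale, not called) and -0.74 ± 0.058 with both.

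The nucleolar scaffold and chaperone genes split. Nolc1, which carries small nucleolar ribonucleoproteins (ENSMUSG00000015176.11, chromosome 19, 46075863 to 46085530), was at 107, 107 and 110.1 CPM in the vehicle libraries, 106, 104 and 105 with genipin alone, 53.3, 53.9 and 55.7 under both compounds, and 107, 110.2 and 109 under NAC alone. The 9 other libraries all lay above those with both compounds. The change was -0.99 ± 0.034 with both (1.99-fold lower), and neither single compound was called in CPM (-0.041 and 0.0094). With NAC, Nolc1 was called higher on the TPM scale (0.24) and without normalization factors (0.13). Gnl3 (nucleostemin, a nucleolar GTPase of growing cells; ENSMUSG00000042354.7, chromosome 14, 31012433 to 31019152) was at 60.8, 59.8 and 63.9 CPM in the vehicle libraries, 65.7, 67.5 and 69.5 with genipin alone, 33.1, 29.5 and 31.3 under both compounds, and 67.2, 72.0 and 68.7 under NAC alone. Its single-compound libraries were slightly above vehicle, by 0.14 ± 0.045 (genipin) and 0.17 ± 0.045 (NAC; -0.065 with effective lengths as offsets), and with both it changed by -0.98 ± 0.048. The genipin call of Gnl3 was lost with effective lengths as offsets (0.13) and without genipin replicate 3 or vehicle replicate 2 (0.12 for each), and the NAC call on the TPM scale (0.13). Ddx21, an RNA helicase, changed by -0.84 ± 0.031 with both and Mybbp1a, a nucleolar MYB-binding protein, by -0.59 ± 0.030.

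Npm1 and Ncl, the most abundant of the 31 genes in TPM, moved little with both compounds. Npm1 (nucleophosmin, a main structural protein of the outer nucleolus; ENSMUSG00000057113.13, chromosome 11, 33152287 to 33163206) was at 2283, 2128 and 2198 CPM in the vehicle libraries, 1430, 1458 and 1381 with genipin alone, 2130, 1763 and 1786 under both compounds, and 1841, 1958 and 1900 under NAC alone. The genipin libraries were the lowest without overlap, and replicate 1 with both compounds lay inside the range of vehicle, above the other two of its group. Npm1 changed by -0.63 ± 0.050 with genipin (adjusted p = 4.69e-10), -0.21 ± 0.049 with NAC and -0.22 ± 0.049 with both; on the TPM scale the value was 0.0051 with NAC and -0.15 with both, neither called. Npm1 has many processed pseudogenes, among which RSEM divides reads, so its level carries that uncertainty. Ncl (nucleolin, an RNA-binding protein of the nucleolus) changed by -0.14 ± 0.040 with both, with libraries that overlapped those of vehicle, and was not called without replicate 3 of the group with both compounds (-0.10, adjusted p = 0.0508).

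Bysl, which is needed for the last steps of small subunit assembly (ENSMUSG00000023988.8, chromosome 17, 47599331 to 47611492), had the largest fall of the 36 genes with both compounds. It was at 46.8, 45.5 and 46.8 CPM in the vehicle libraries, 38.7, 37.1 and 38.6 with genipin alone, 20.1, 21.4 and 23.8 under both compounds, and 41.5, 37.9 and 42.5 under NAC alone. The libraries with both compounds were the lowest without overlap, and the change against vehicle was -1.09 ± 0.061 (2.12-fold lower, adjusted p = 2.64e-12). The other small subunit genes Utp20 (-0.66 ± 0.043), Wdr43 (-0.67 ± 0.042) and Rrp12 (-0.63 ± 0.055) also fell with both compounds. Rrp12, a HEAT-repeat factor that works in export of the subunits, was at 49.5, 50.4 and 46.9 CPM in the vehicle libraries, 41.0, 37.9 and 39.8 with genipin alone, 28.8, 32.7 and 33.0 under both compounds, and 45.3, 47.5 and 47.0 under NAC alone. Genipin alone gave -0.30 ± 0.054 and NAC alone -0.068 ± 0.053, the latter not called.

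Nop14, a scaffold of the early small subunit particle, was the only one of these 5 to rise with NAC. It was at 57.7, 57.4 and 57.3 CPM in the vehicle libraries, 53.3, 49.2 and 48.6 with genipin alone, 56.5, 49.4 and 51.0 under both compounds, and 70.1, 72.5 and 78.4 under NAC alone. The NAC libraries were above all others, and the change was 0.36 ± 0.051 with NAC, -0.19 ± 0.053 with genipin (-0.081 on the TPM scale, not called) and -0.14 ± 0.053 with both. The last value was called (adjusted p = 0.0309) but not when replicate 2 or replicate 3 with both compounds, or any 1 vehicle library, was left out (adjusted p of 0.0626 to 0.153).

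All 9 large subunit genes fell with both compounds, with log2 fold changes from -0.89 to -0.34. Nop2, an rRNA methyltransferase, was at 81.5, 79.5 and 79.1 CPM in the vehicle libraries, 66.2, 65.0 and 65.9 with genipin alone, 45.2, 43.6 and 41.0 under both compounds, and 69.5, 72.5 and 74.4 under NAC alone. Both compounds gave -0.89 ± 0.042, and genipin -0.28 ± 0.040; NAC gave -0.15 ± 0.040 in CPM and 0.049 on the TPM scale. Wdr12, which forms the PeBoW complex with Pes1 and Bop1, was at 62.6, 64.9 and 64.5 CPM in the vehicle libraries, 43.5, 45.9 and 45.8 with genipin alone, 36.2, 34.7 and 34.3 under both compounds, and 49.0, 47.9 and 51.9 under NAC alone. Each treatment lowered it in CPM: genipin gave -0.51 ± 0.044, NAC -0.37 ± 0.044 and both -0.87 ± 0.045 (interaction 0.0036 ± 0.064, adjusted p = 0.97). The NAC value of Wdr12 was -0.18 on the TPM scale and not called (adjusted p = 0.0583, limma). Its partners changed by -0.66 ± 0.041 (Bop1) and -0.35 ± 0.033 (Pes1) with both.

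Nip7, a late rRNA processing factor, was low with NAC whether or not genipin was present. It was at 64.3, 57.6 and 61.3 CPM in the vehicle libraries, 56.0, 59.3 and 56.0 with genipin alone, 42.4, 37.4 and 39.6 under both compounds, and 42.9, 43.5 and 44.5 under NAC alone. NAC gave -0.48 ± 0.050, both gave -0.62 ± 0.051, genipin gave -0.10 ± 0.049 (not called), and both against NAC gave -0.13 ± 0.052. That last call (adjusted p = 0.0365) was lost without replicate 2 or 3 of either group (-0.14 to -0.092), without the filter and with effective lengths as offsets. The genipin value of Nip7 was called with effective lengths as offsets (-0.18), with only the groups compared (-0.10) and without vehicle replicate 2 (-0.14). Rrs1, which loads the 5S particle, did the reverse with genipin alone: it was at 32.6, 31.0 and 32.3 CPM in the vehicle libraries, 42.8, 43.0 and 38.6 with genipin alone, 18.3, 19.6 and 18.2 under both compounds, and 31.8, 30.1 and 29.1 under NAC alone. Genipin raised it by 0.37 ± 0.058, NAC gave -0.078 ± 0.059 (not called), and both gave -0.78 ± 0.062. Of the remaining 3, Nop16 changed by -0.55 ± 0.055, Ebna1bp2 by -0.48 ± 0.040 and Noc2l by -0.34 ± 0.040 with both. Gnl3 and Rrs1 were set out in full after their values had been seen.

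**Figure D3:**
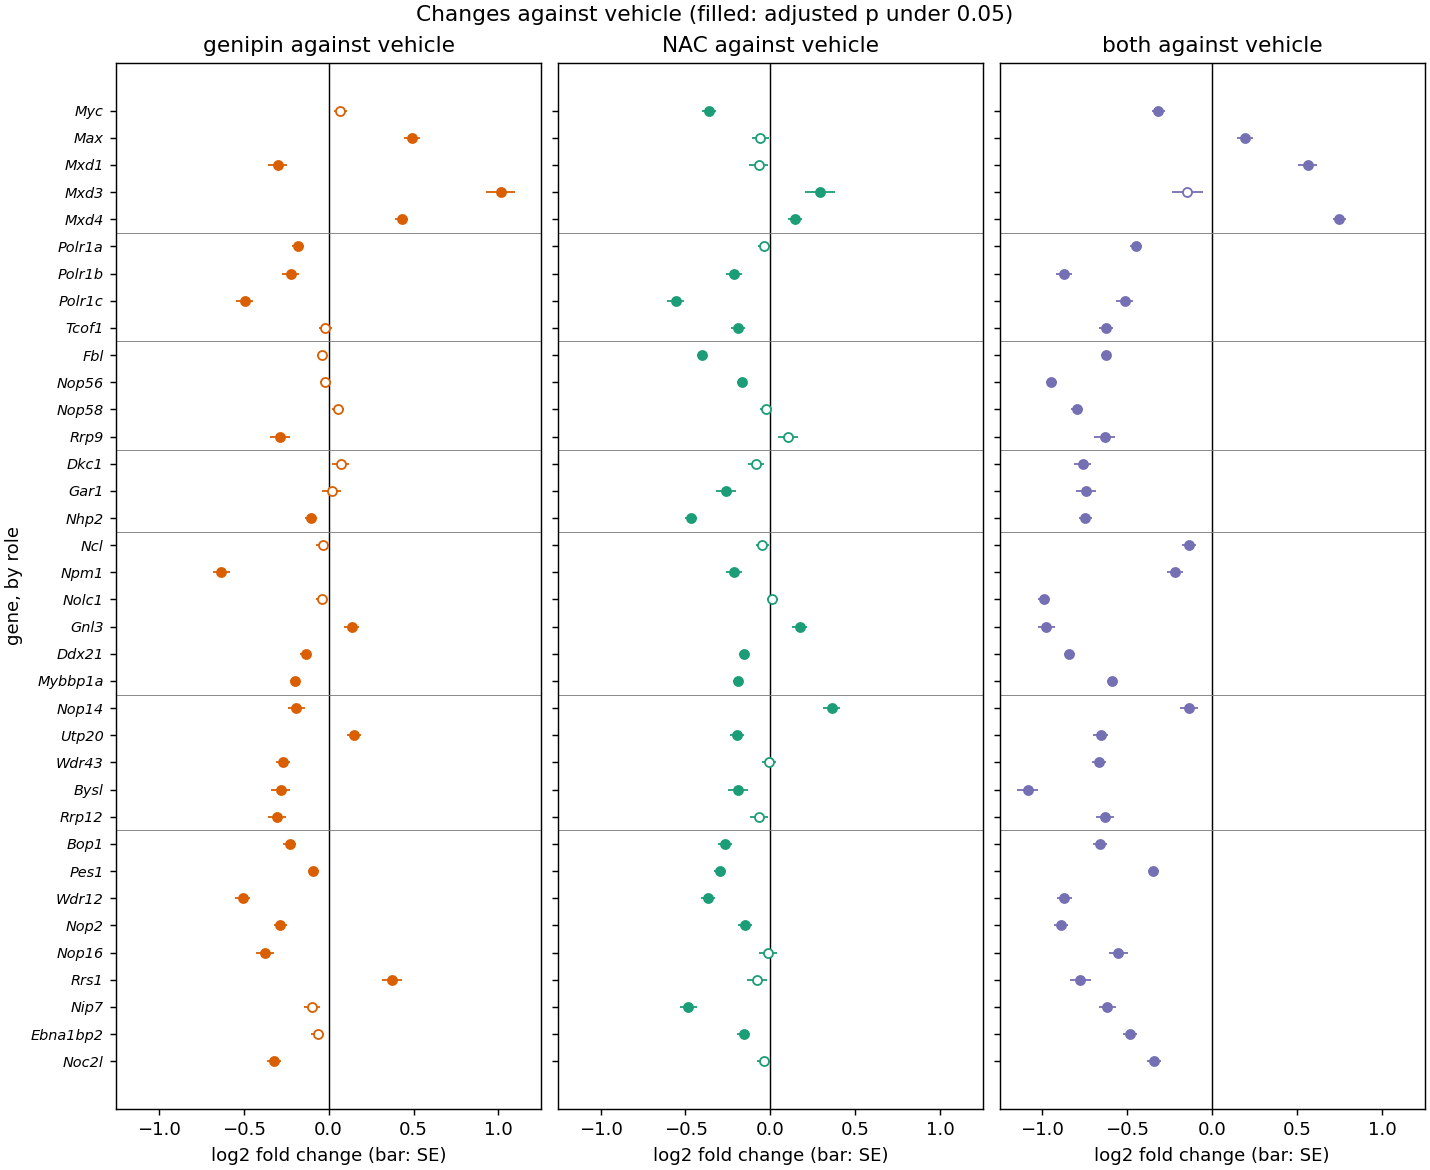
Log2 fold change against vehicle (horizontal axis, bars are SE) of each of the 36 genes (rows, by role) with genipin, NAC and both compounds; filled points were called at adjusted p under 0.05. With both compounds all 31 nucleolar genes lie left of 0, from -1.09 (Bysl) to -0.14 (Ncl). With genipin 25 and with NAC 27 of them do, with medians of -0.14 and -0.16, and the others lie to the right. Of all 13636 genes tested, 6940 (genipin) and 6899 (NAC) were below 0.

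With the single compounds the changes were mostly smaller, leaned to lower in CPM and were mixed on the TPM scale. Genipin against vehicle called 6 of the 36 genes higher and 19 lower, where 29.9% of all genes were called higher and 31.0% lower. Of the 31 nucleolar genes, 3 were higher and 18 lower in CPM (median -0.14), but 9 were higher and 7 lower on the TPM scale (median 0.016). NAC against vehicle called 4 of the 36 higher and 19 lower, beside 29.6% and 30.0% of all genes. Of the 31, 2 were higher and 18 lower in CPM (median -0.16), but 7 were higher and 5 lower on the TPM scale (median 0.049). The median over all genes tested went from -0.0079 to 0.093 (genipin) and from -0.0053 to 0.15 (NAC) with that change of scale, and the share of higher among all calls moved from 49.1% to 66.7% and from 49.7% to 77.7%. Relative to the median of all genes, the nucleolar median was -0.13 in CPM and -0.077 in TPM with genipin, and -0.15 and -0.10 with NAC.

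The group with both compounds was below each single compound as well. Against genipin, 3 of the 36 genes were higher and 30 lower, where 35.0% of all genes were called higher and 34.3% lower, and 27 of the 31 nucleolar genes were lower (median -0.52). The exceptions were Npm1, which was higher (0.41 ± 0.049), and Polr1c, Nop14 and Noc2l, which were not called. Against NAC, 3 of the 36 were higher and 28 lower, beside 26.6% and 26.5% of all genes, and 27 of the 31 nucleolar genes were lower (median -0.50). Polr1c, Ncl, Npm1 and Pes1 were not called there; without replicate 1 of the group with both compounds, Ncl (-0.15) and Npm1 (-0.098) were called lower, and on the TPM scale Ncl (-0.27) and Pes1 (-0.17) were. Against vehicle, 3 of the 36 were higher (Max, Mxd1 and Mxd4), 32 lower, and Mxd3 not called. The 3 contrasts share the libraries with both compounds. In all 3, the nucleolar median kept its distance from the median of all genes in every scaling tried: -0.53 to -0.48 against genipin, -0.51 to -0.48 against NAC and -0.66 to -0.61 against vehicle.

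Whether genipin acted differently with NAC present was tested by the interaction, that is, both compounds against NAC minus genipin against vehicle. It was called for 29 of the 36 genes, 4 of them positive and 25 negative, where 27.4% of all genes were positive and 24.0% negative; on the TPM scale the split over all genes was 1542 positive to 5344 negative, from 3733 to 3275. Of the 31 nucleolar genes, 23 were negative and 2 positive (27 and 2 on the TPM scale), with a median of -0.31, and of -0.36 without replicate 1 of the group with both compounds. Without that library Ncl was also called (-0.12), which made 26 of the 36 negative. The largest negative values were Gnl3 (-1.28 ± 0.066, adjusted p = 4.97e-13), Rrs1 (-1.07 ± 0.085), Nolc1 (-0.96 ± 0.047), Nop58 (-0.82 ± 0.050) and Nop56 (-0.76 ± 0.046), so genipin left these 5 near or above vehicle level in cells without NAC and far below NAC level in cells with it. Npm1 (0.63 ± 0.070) and Polr1c (0.54 ± 0.071) had positive values. Of the 9 large subunit genes 4 had a called interaction in CPM (Bop1, Nop2, Rrs1 and Ebna1bp2), all negative; the others were Pes1, Wdr12, Nop16, Nip7 and Noc2l, between -0.16 and 0.040. On the TPM scale Pes1 (-0.22), Noc2l (-0.25) and Nop16 (-0.37) were called negative as well. Nop16 was also called without replicate 2 of genipin or of the group with both compounds (-0.20 for each), and Bop1 was not called without replicate 1 of genipin (-0.15) or of NAC (-0.14). Myc had none (-0.026 ± 0.056, adjusted p = 0.729) in CPM, while on the TPM scale its value was -0.30 (adjusted p = 0.00113, limma).

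Set against the nucleolar genes, the Myc transcript did not give the same order of groups in CPM. In the 3 NAC libraries Myc was -0.41 to -0.28 on the log2 CPM scale relative to the vehicle mean, while the median of the 31 nucleolar genes was -0.17 to -0.14. In the 3 libraries with both compounds Myc was -0.43 to -0.27 and the nucleolar median -0.68 to -0.65. The Myc values of these 2 groups overlapped only through replicate 1 with both compounds (-0.43). Replicates 2 and 3 with both compounds (-0.27 each) lay above all NAC libraries. The nucleolar values of the 2 groups did not overlap. In the genipin libraries Myc was 0.029 to 0.11 and the nucleolar median -0.15 to -0.12. The order of groups for Myc depended on the scale. In TPM its means were 217 with vehicle, 253 with genipin, 196 with NAC and 185 with both, so the group with both compounds was lowest. The Myc libraries with NAC and with both compounds overlapped in TPM too, while the nucleolar median for both against NAC was -0.58 on that scale. The libraries formed separate groups, so no correlation over them is given.

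**Figure D4:**
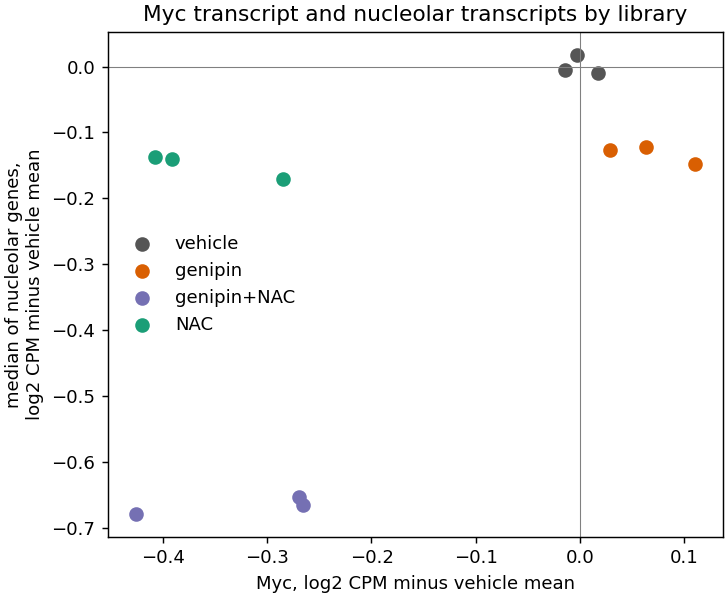
Each point is 1 library: Myc on the horizontal axis and the median of the 31 nucleolar genes on the vertical axis, both as log2 CPM minus the mean of vehicle. NAC libraries fall within the Myc range of the libraries with both compounds (-0.43 to -0.27), whose lower end is replicate 1 alone. On the vertical axis NAC libraries sit at about -0.15 and libraries with both compounds at about -0.67.

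Likeness to Myc was measured as the root mean square difference over the 12 libraries between log2 CPM profiles, each centred on its own mean. Among the 31 nucleolar genes the median difference was 0.273, against 0.320 over all genes. By construction, a gene that did not change at all would have a difference of 0.196, the spread (SD) of Myc itself. The nucleolar median was thus farther from Myc than a flat profile. On the TPM scale the medians were 0.263 for the nucleolar genes and 0.272 over all genes. Pes1 was the nucleolar gene nearest to Myc (0.0891), followed by Fbl (0.129), Nip7 (0.143) and Ebna1bp2 (0.156), and Gnl3 was the farthest (0.432). The 5 genes of the whole table nearest to Myc were Cdk9, a kinase of transcription elongation (0.0298), Psmb4, a proteasome subunit (0.0414), Bax, an effector of apoptosis (0.0423), Txn2, the mitochondrial thioredoxin (0.0459), and Atp5g3, a subunit of ATP synthase (0.0462). Cdk9 had mean levels of 127.0 CPM with vehicle, 128.0 with genipin, 102.0 with both and 97.7 with NAC, against 407, 426, 326 and 317 CPM for Myc.

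Other genes of ribosome production and MYC targets elsewhere were also mostly lower with both compounds. Their lists were fixed by function, with earlier results of these data known. For comparison, 28.9% of all genes were called lower and 28.5% higher with both compounds against vehicle, 31.0% and 29.9% with genipin, and 30.0% and 29.6% with NAC. Of 47 other small subunit processome genes, 40 were called lower and none higher with both compounds against vehicle (median -0.39). In 31 of the 47 (66%), all 3 libraries with both compounds lay below the other 9, beside 9.29% of all genes. With genipin 20 of the 47 were lower and 5 higher (median -0.082) and with NAC 22 and 2 (median -0.094). Of 47 other large subunit genes, 40 were lower and 1 higher (median -0.43), and of 30 other MYC-induced genes outside the nucleolus, 26 were lower and none higher (median -0.45). Of 13 other RNA polymerase I genes, 7 were lower (53.8%) and 1 higher (7.69%), with a median of -0.15. Of 15 other MYC family and partner genes, 6 were lower (40%) and 5 higher (33.3%), with a median of -0.11, nearer to the shares over all genes. By the rule that named genes in these lists, Utp14a, a processome helicase cofactor, changed by -0.59 ± 0.039 with both, Rcl1 by -0.78 ± 0.055, Imp4 by -0.41 ± 0.042 and Nop10 by -0.39 ± 0.058. In the large subunit list Ddx24 changed by -0.48 ± 0.031 and Rrp1b by -0.59 ± 0.038, whereas Nsa2 (0.12 ± 0.032) was higher with both and Nop53 (0.075 ± 0.033) was not called. With genipin alone the means of these last genes were below vehicle, at 319.8 against 469.5 CPM (Nsa2) and 351.4 against 458.6 CPM (Nop53).

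Other genes of the MYC family went their own ways. Mycn, a paralogue of Myc, changed by -1.55 ± 0.061 with NAC, -0.70 ± 0.057 with genipin and -0.82 ± 0.058 with both. Mxi1, a repressor of the MXD family, changed by -0.72 ± 0.046 with genipin, 0.0069 ± 0.044 with NAC (not called) and 1.06 ± 0.042 with both, an interaction of 1.77 ± 0.063. Mlxip, a partner of MLX, rose with each treatment, by 0.54 ± 0.036, 0.27 ± 0.037 and 0.67 ± 0.036 in the same order, and Trrap, a coactivator scaffold of MYC, by 0.26 ± 0.033, 0.66 ± 0.033 and 0.44 ± 0.033. Ubtf, the factor that opens ribosomal DNA for RNA polymerase I, rose with genipin (0.45 ± 0.031) and fell with NAC (-0.30 ± 0.032) and with both (-0.31 ± 0.032). Polr1d fell in all 3 (-0.38 ± 0.030, -0.35 ± 0.030 and -0.15 ± 0.029), and Baz2a, a silencer of ribosomal DNA, rose by 0.36 ± 0.033 with NAC. Among MYC-induced genes outside the nucleolus, the chaperonin gene Hspe1 changed by -0.41 ± 0.028 with both and Nme1, a nucleoside diphosphate kinase, by -0.74 ± 0.034. Ldha (0.030 ± 0.025), the lactate dehydrogenase of glycolysis, and the amino acid transporter chain Slc3a2 (0.044 ± 0.031) were not called with both. They did move with the single compounds. Ldha had mean levels of 1976 CPM with vehicle, 1312 with genipin, 1500 with NAC and 2017 with both. Those of Slc3a2 were 235, 178, 335 and 242 CPM in that order of groups.

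The ribosomal protein genes did not follow the nucleolar genes. With genipin 72 of 77 were called lower and 1 higher (median -0.36), with NAC 64 lower and none higher (median -0.20), and with both 31 lower and 11 higher (median -0.034). With both compounds these were 40.3% and 14.3% of the 77, beside 28.9% and 28.5% of all genes, and with genipin and NAC 31.0% and 30.0% of all genes were lower. None of the 77 had all 3 libraries with both compounds below the other 9, beside 9.29% of all genes. In 12 of the 77 (15.6%) these 3 libraries lay above the other 9, beside 8.69% of all genes. The interaction was positive in 76 and negative in 1, where 27.4% and 24.0% of all genes were. Rpl24 changed by -0.62 ± 0.024 with genipin, 0.029 ± 0.024 with NAC and 0.12 ± 0.024 with both, and Rpl3 by -0.55 ± 0.024, -0.26 ± 0.024 and -0.16 ± 0.024. Together the 77 genes held 318400 to 323100 TPM with vehicle, 275500 to 279100 with genipin, 327400 to 333300 with both and 322800 to 327200 with NAC. In summed TPM the NAC libraries thus did not lie below vehicle, although 64 of the 77 genes were called lower in CPM. The fall with genipin was present on both scales. Ribosomal protein genes also have many processed pseudogenes, among which reads may be divided.

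**Figure D5:**
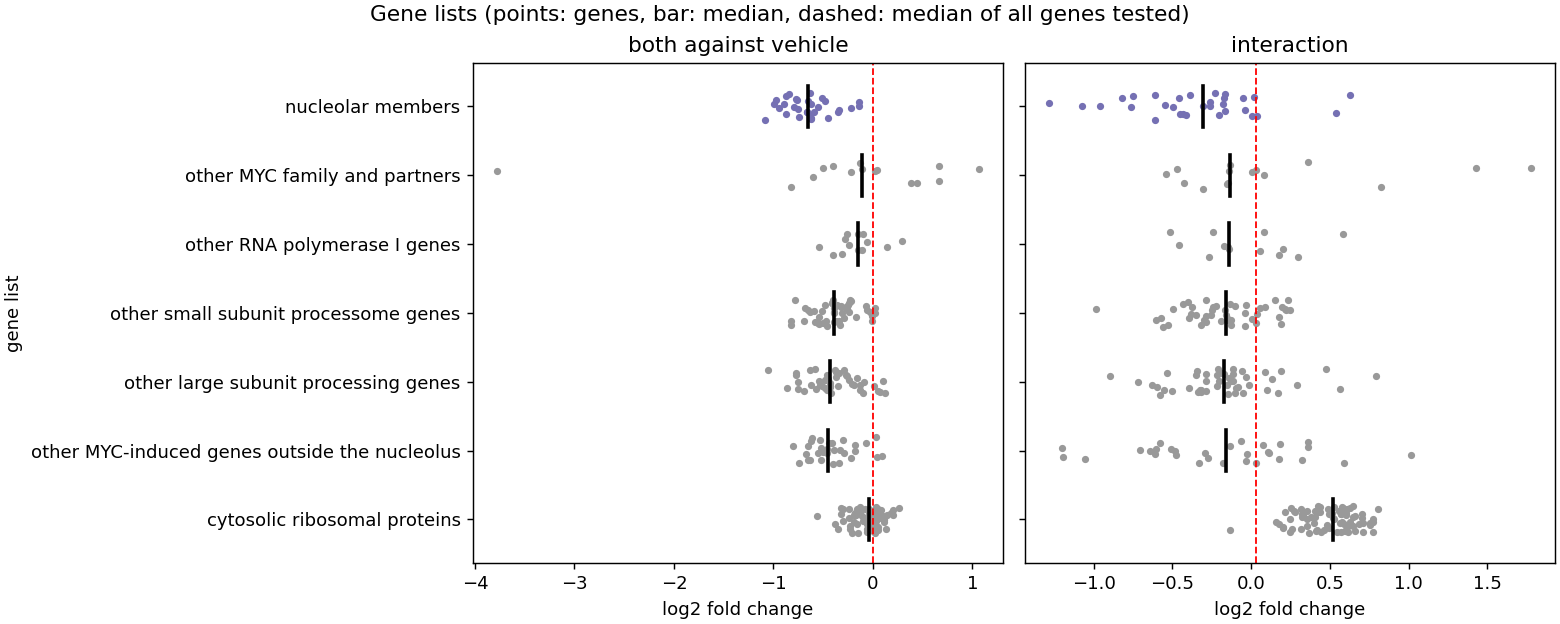
Log2 fold change of each gene (points) with both compounds against vehicle (left) and for the interaction (right), by gene list; black bars are list medians and the dashed line is the median of all genes tested. The nucleolar list lies at -0.66 and -0.31, and the ribosomal protein genes at -0.034 and 0.52.

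The nucleolar genes with and without CACGTG in the promoter window overlapped in their response. With both compounds against vehicle the median was -0.66 for the 5 nucleolar genes with CACGTG in the window (Mybbp1a, Nop2, Pes1, Utp20 and Wdr43), -0.75 for the 20 without it, and -0.63 for the 6 whose windows were not analysed. The 5 ranged from -0.89 (Nop2) to -0.35 (Pes1) and the 20 from -1.09 to -0.14. No test was made of this difference.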

How the data were processed

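RNA of 12 libraries in 4 groups of 3 was measured with a stranded total RNA kit after removal of ribosomal RNA, as paired reads of 150 bases, per the labels' protocols. The submitters' processing notes name RSEM 1.3.1, STAR 2.7.0f, cutadapt 1.18, bcl2fastq and the mm10 build; settings, strand included, are not given in the sources used here, so reads of overlapping or antisense genes may not be separable. The authors deposited 1 gene table per library, which per the file headers holds expected counts, TPM, FPKM and effective lengths (other values). All 55450 IDs and symbols equal GENCODE mouse release 21, which supplied coordinates. FPKM, as deposited by the authors, was not used.

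Expected counts, as the authors deposited them, were rounded to whole counts, filtered with filterByExpr (13636 genes), scaled by TMM (factors 0.961 to 1.05) and fitted with 1 mean per group over all 12 libraries in edgeR 4.0.16 (R 4.3.3; 8 residual and 12.6 prior degrees of freedom; common coefficient of variation 0.0393). Quasi-likelihood tests were adjusted by Benjamini and Hochberg over all genes. Steps were tested on simulated data. Alternatives were RLE or no scaling factors, DESeq2 1.42.0, limma-voom (limma 3.58.1), no filter, at least 5 CPM, only the groups compared, effective length offsets, adjusted p under 0.01, 1.5-fold, a replicate block and each library left out. A TPM-scale fit (log2 of TPM + 1, limma-trend) was chosen after seeing the data. The members and lists were chosen with earlier results of these data known.

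Full values are given for the MYC network and, in each other role group, for the genes with the largest called change with genipin, NAC and both against vehicle. In the other lists, up to 2 genes with the smallest p with genipin and with NAC against vehicle were named, and the 5 genes most like Myc. Some genes that this rule named are not reported here. Of the 233 listed pathway genes, Polr1f, Polr1g, Polr1h and Utp11l had no row under those symbols and were counted under their older or newer ones. The lowest count of any of the 36 genes in any library was 284 (Mxd3). Promoter windows are from RefSeq. Plots used matplotlib 3.10.9 (Python 3.11.15).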

Additional observations from a re-analysis of the deposited data

Results flagged for a closer look

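For 29 of the 36 genes the genipin effect differed between cells with and without NAC, by the interaction term of the edgeR quasi-likelihood fit with Benjamini-Hochberg adjustment. The term was positive in 4 of the 36 and negative in 25, beside 27.4% and 24.0% of all genes tested. Values are log2, the effect with NAC minus that without it. Positive values were those of Mxd1 (0.93), Mxd4 (0.18), Polr1c (0.54) and Npm1 (0.63). Negative values in the MYC network were those of Max (-0.24) and Mxd3 (-1.45). In the RNA polymerase I and small nucleolar ribonucleoprotein genes they were Polr1a (-0.23), Polr1b (-0.43), Tcof1 (-0.41), Fbl (-0.18), Nop56 (-0.76), Nop58 (-0.82), Rrp9 (-0.45), Dkc1 (-0.75), Gar1 (-0.50) and Nhp2 (-0.17). In the scaffold and chaperone genes they were Nolc1 (-0.96), Gnl3 (-1.28), Ddx21 (-0.55) and Mybbp1a (-0.20). In the small and large subunit genes they were Nop14 (-0.31), Utp20 (-0.61), Wdr43 (-0.39), Bysl (-0.61), Rrp12 (-0.26), Bop1 (-0.17), Nop2 (-0.46), Rrs1 (-1.07) and Ebna1bp2 (-0.26). The interaction was not called for Mxd4 without normalization factors or on the TPM scale, for Max and Bop1 with effective length offsets, or for Bop1 without replicate 1 of genipin or of NAC; each adjusted p at 0.01 or more in the fit reported was that of Bop1 (0.0195) or Mxd4 (0.0112).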

How the results depend on the processing

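With both compounds against vehicle, no value of a gene reversed under any alternative, and the nucleolar median was -0.62 without normalization factors and -0.56 on the TPM scale, from -0.66. Medians of the other contrasts without normalization factors were -0.071 (genipin against vehicle), -0.038 (NAC against vehicle, with 8 of the 36 higher and 10 lower, and 2700 of all genes lower), -0.58 (both against NAC) and -0.45 (interaction). On the TPM scale they were 0.016 (genipin; 13 of 36 higher, 7 lower, 2465 of all genes lower), 0.049 (NAC; 10 higher, 6 lower, 1669 of all genes lower), -0.58 (both against NAC; 1660 of all genes higher) and -0.54 (interaction; 1542 of all genes higher, 5344 lower), and 2605 of all genes were lower with both against vehicle. Without normalization factors the median of all genes moved to 0.114 with NAC and -0.112 for the interaction. Effective length offsets gave -0.47 for both against genipin.

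A change of at least 1.5-fold, a stricter rule by construction, left 1 of the 36 higher and 1 lower with genipin (1026 and 1600 of all genes), 0 and 0 with NAC (1516 and 1109), 1 and 15 for both against genipin (2420 and 1515), 12 lower for both against NAC (993 and 938 of all genes), 1 higher for both against vehicle (1401 and 824), and 2 and 9 for the interaction (1732 and 1025). The rule removed Ebna1bp2, Myc, Ncl, Noc2l, Nop14, Nop16, Npm1, Pes1, Polr1a and Polr1c from the 32 genes lower with both against vehicle. The rest of the 32 stayed lower. Against NAC, Max was no longer called higher with both, and Mxd1 and Mxd4 still were. The likeness of nucleolar genes to Myc was 0.263 in place of 0.273 on the TPM scale, and CANNTG in place of CACGTG gave 58.6% in place of 24.1%.

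Reversed values of single genes were as follows. On the TPM scale with genipin they were Polr1a 0.016, Polr1b 0.029, Tcof1 0.13, Fbl 0.10, Nop56 0.25, Nhp2 0.025, Nolc1 0.14, Pes1 0.059, with NAC Max 0.77, Polr1b 0.052, Nop58 0.23, Ncl 0.16, Npm1 0.0051, Ddx21 0.032, Utp20 0.078, Wdr43 0.16, Bysl 0.0050, Nop2 0.049, Noc2l 0.16, for Max against genipin 0.11 and against NAC -0.20, and for the interaction Mxd4 -0.041, Pes1 -0.22, Noc2l -0.25. With effective length offsets they were 0.12 (Nop56, genipin), 0.60 (Max, NAC), -0.065 (Gnl3, NAC) and, for Max with both, 0.18 against genipin and -0.10 against NAC. Without normalization factors they were Nop58 0.095, Wdr43 0.11 with NAC. The cause was not tested. A further 75 values that were called under neither setting changed sign, 12 of them on the TPM scale.

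Leaving out each library in turn reversed 0 of 2592 values of single genes, took 26 below the threshold and 13 past it. Nucleolar medians then ran from -0.55 to -0.48 (both against genipin), -0.51 to -0.45 (both against NAC) and -0.36 to -0.27 (interaction). Same-numbered replicates did not visibly deviate together (correlations of -0.0751 to 0.0437 over 18 pairs, and 4 of 12 libraries closest to their own number). These values cannot tell whether they shared an animal, culture or batch, since a small shared deviation could be missed. With the replicate block the nucleolar median was -0.66 with both against vehicle and -0.31 for the interaction, and 32 and 25 of the 36 genes were lower. The block changed 0 of 216 calls.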
